A study of Macaca fuscata with 12 samples.

Results

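The HOX genes measured here were all probe sets whose annotated gene is a single symbol of the HOXA, HOXB, HOXC or HOXD series. They made up 44 of the 52766 probe sets tested, and 26 of the 14132 genes that have a probe set of their own. The HOXA cluster had 9 genes, HOXB 7, HOXC 4 and HOXD 6. A single probe set stood for 16 genes and several for the other 10.

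HOX genes encode homeodomain transcription factors that lie in 4 clusters and set the identity of segments along the head to tail axis of the embryo. Genes at one end of a cluster act in the hindbrain and those at the other end act towards the tail, in the spinal cord, trunk and limbs. The forebrain, from which the cortex develops, lies in front of the HOX domains, and Polycomb complexes keep the clusters repressed there. HOX proteins bind DNA together with PBX, MEIS and PKNOX cofactors, and retinoic acid, FGF, WNT and CDX factors switch the clusters on in the embryo.

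The study measured gene expression in the left parietal cortex of Japanese macaques (Macaca fuscata) trained to use a tool and of control animals, on 12 arrays of a rhesus design, with 3 arrays in each of 4 groups. One region was the cortex around the lateral sulcus, with the secondary somatosensory cortex (SII), and the other the cortex around the intraparietal sulcus (IPS). The 12 arrays came from 8 animals, of which 4 gave both regions. The SII controls were a female of 4 years 6 months and males of 5 years 4 months and 5 years 10 months. The animals of the SII trained group were a male of 5 years 7 months, a female of 3 years 10 months and a male of 5 years 1 month. The IPS controls were males of 5 years 4 months, 5 years 10 months and 3 years 9 months, and the IPS trained animals were males of 5 years 7 months, 6 years and 5 years 1 month. The labels give no training schedule, no pooling and no time between training and sampling. In bulk tissue, fewer cells of a type and less RNA per cell cannot be told apart.

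The deposited values are log2 signals from which the median of the 12 arrays has been taken for each probe set, so they give differences between arrays and no level. A part of the level was recovered from a floor that many probe sets share exactly within an array. Probe sets at the floor in 2 or more arrays form the floor class. The others were classed by the rounding step of their values, which coarsens with the signal: a step typical of at least 256 times the floor in at least 11 arrays (high), a step typical of at least 16 times the floor (middle), or a finer one (low). Of 16 probe sets of neuron, astrocyte and oligodendrocyte markers, 8 were high and 6 middle, so the defining markers of brain cells were present. The floor lay 1.67 log2 units apart between the arrays, highest in SII trained 2 and lowest in SII control 2. A probe set wholly at the floor therefore shows an apparent change with training of 0.08 in SII and 0.26 in IPS. Spiked-in hybridisation controls (18 probe sets) stood high in 3 arrays: SII trained 2 had a mean of 0.49, SII control 1 one of 0.47 and IPS trained 3 one of 0.44. The remaining arrays lay between -0.14 and 0.08. SII control 1 and SII trained 2 are also the only arrays of females. The difference between the 3' and 5' probe sets of actin reads RNA integrity, here only relative to the other arrays. It ran from -1.87 in SII control 2 to 1.37 in IPS trained 3. In SII it was 0.25, -1.87 and -1.71 in controls and 1.17, 0.63 and -1.54 in trained animals. In IPS it was 0.02, 0.23 and 0.05 in controls and -0.79, 0.54 and 1.37 in trained animals. That of GAPDH ran from -0.57 in SII control 3 to 1.01 in IPS trained 3.

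HOX signals were dim. None of the 44 probe sets was in the high class, 5 were middle, 22 were low and 17 had floor values, so 39 (88.6%) were low or at the floor. Over all probe sets this share was 52.0%. It was 89.0% for 200 probe sets of olfactory receptors, which work in the nose, and 64.7% for 17 probe sets of other genes of liver, lens, testis, hair and the like. All 7 HOXC probe sets were low or at the floor, as were 11 of 12 in HOXA, 11 of 13 in HOXB and 10 of 12 in HOXD. The middle class held 1 probe set each of HOXA3, HOXB1, HOXB8, HOXD4 and HOXD10. The middle class can hold dim probe sets, because its rounding step also occurs in 97.0% of values 1 to 2 log2 units above the floor. The HOXA3, HOXB8 and HOXD10 genes each had other probe sets in lower classes.

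The 17 probe sets of the floor class had 66 of their 204 values (32.4%) at the floor, and the median value was 0.79 log2 units above it. The highest was 4.38, for HOXA5 in SII control 2, and it was the single value of 4 or more. HOXA13, which patterns the distal limb and the genital and lower gut region, was at the floor in 11 of 12 arrays and 1.85 above it in IPS control 3. HOXA7, a gene of the thoracic region, was at the floor in 7 arrays and never more than 1.05 above it. The highest group mean in this class, 3.35, belonged to a HOXD13 probe set (MmugDNA.1055.1.S1_at), which stood 3.93, 3.37 and 2.75 above the floor in the IPS controls. Over all 44 probe sets, 12.5% of values were at the floor, against 6.64% of all values on the arrays and 11% for olfactory receptors. IPS trained 3 and SII trained 2 each held 10 HOX floor values, and SII control 2 held 2.

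**Figure D1:**
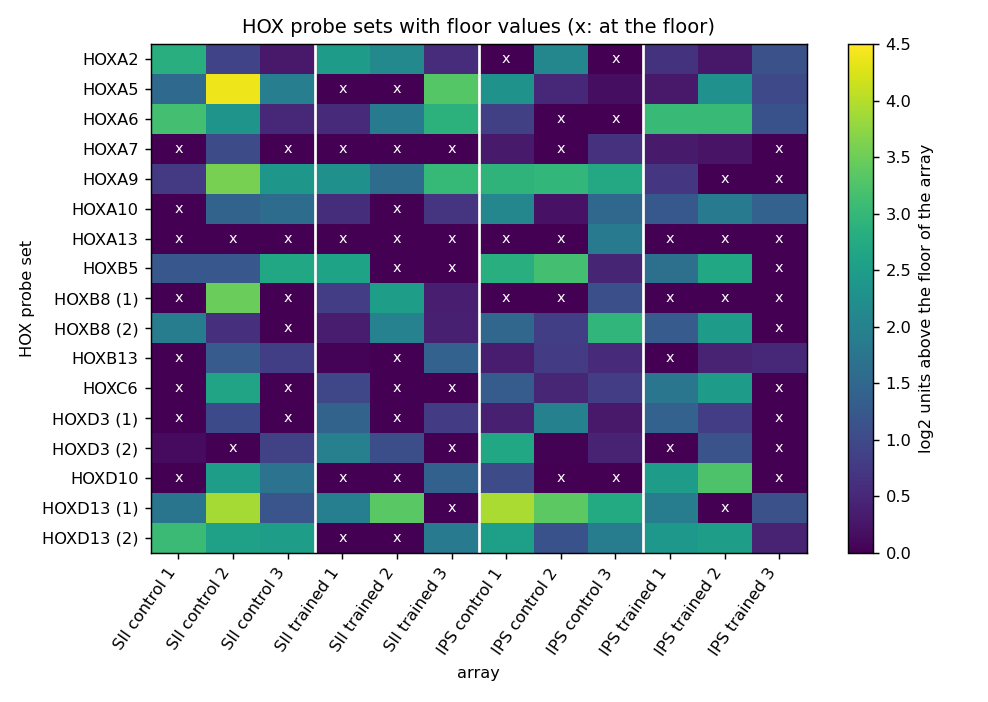
Signal of the 17 HOX probe sets with floor values, in log2 units above the floor of each array (colour), in the 12 arrays by group; x marks a value at the floor and white lines part the groups. HOXA13 sits at the floor in 11 arrays, and HOXA5 in SII control 2 is the brightest cell at 4.38.

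HOX probe sets varied widely between arrays of a group. The median standard deviation (SD) within groups was 0.83 log2 units over the HOX probe sets and 0.57 over all probe sets. In the low class it was 0.83 for HOX against 0.78 for all probe sets, and in the floor class 0.89 against 1.03. The 5 middle HOX probe sets were wider than their class, with 0.72 against 0.37. Olfactory receptors had 0.84. The median range over the 12 arrays was 3.00 log2 units for HOX and 1.94 for all probe sets.

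The steadiest HOX probe set was MmugDNA.37302.1.S1_at of HOXA11, a gene of the forelimb and urogenital tract, with an SD of 0.16 and values from -0.38 to 0.38. The next was MmuSTS.3806.1.S1_at of HOXD10, a gene of lumbar motor neurons, with an SD of 0.30. The widest were MmugDNA.1055.1.S1_at of HOXD13, a gene of the digits, with 1.44, and MmuSTS.3680.1.S1_at of HOXA2, which specifies hindbrain segments and the crest cells of the second pharyngeal arch, with 1.42. HOXA2 stood at 2.92, -0.38 and -0.05 in the SII controls, 1.95, 2.51 and -0.62 in SII trained, -0.85, 1.33 and -0.78 in the IPS controls and 0.05, -0.41 and 0.84 in IPS trained. The SII groups and the IPS controls each held both high and low arrays, and the groups overlapped. The second HOXA11 probe set had an SD of 1.09. SII trained 2 held the highest value of 12 of the 44 HOX probe sets (27.3%), against 18.3% over all probe sets, and it is one of the arrays with raised hybridisation controls. The part of those controls in this count was not tested.

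**Figure D2:**
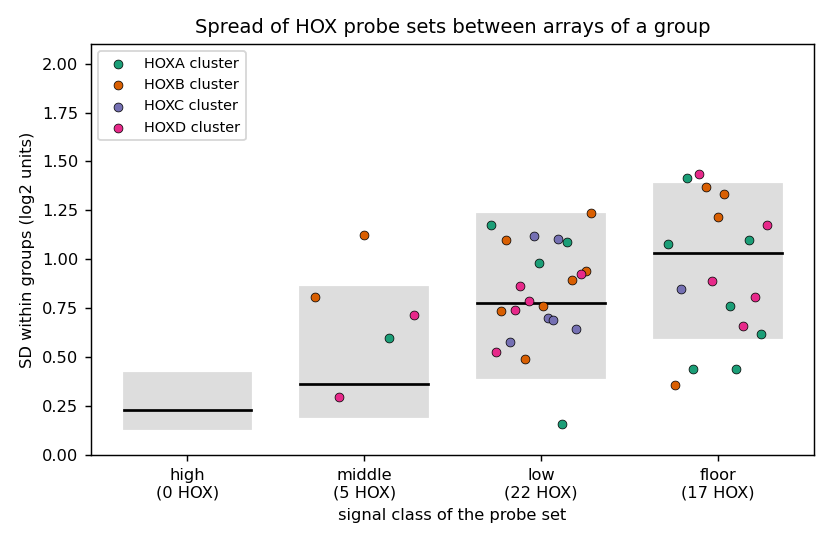
SD within groups (log2 units, vertical axis) of each HOX probe set (points, coloured by cluster) in the 4 signal classes; black lines are the medians and grey boxes the 10th to 90th percentiles of all probe sets of the class. No HOX probe set is in the high class, and HOX points in the low class centre near the class median of 0.78.

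Probe sets of one HOX gene hardly tracked each other over the arrays. Of 30 pairs in 10 genes, 15 had a correlation above 0 over the 12 arrays, and the median was -0.0053, with a range from -0.75 to 0.66. The median was 0.14 over all genes with several probe sets, 0.08 where both probe sets were low or at the floor, and 0.41 where both were high. The 12 arrays share animals and array-wide shifts, so these correlations are descriptions. HOXB6 (0.24) and HOXB8 (0.23) had the highest median correlations of a gene, and HOXA3 (-0.34) and HOXB5 (-0.16) the lowest. HOXB6, HOXA3 and HOXB5 had 1 pair each. Without the 10 pairs of HOXB8 the median was -0.05. After group means were removed, the median was 0.08 for HOXB8, 0.04 for all 30 HOX pairs and 0.16 over all genes with several probe sets.

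HOX deviations showed no consistent correlation between the regions of an animal. After group means were removed, the correlation over the 44 probe sets between the SII and IPS arrays of an animal ran from -0.15 to 0.13 in 4 animals. It ran from -0.19 to 0.18 in the 14 pairs of an SII and an IPS array with the same training from different animals.

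In the SII region no HOX probe set passed the adjusted test between trained and control animals. In limma with Benjamini-Hochberg adjustment over all 52766 probe sets, 0 of 44 passed an adjusted p of 0.05, as did 0% of all probe sets, and the lowest adjusted p of a HOX probe set was 0.279. At an unadjusted p under 0.05 stood 5 of 44 (11.4%), 4 higher and 1 lower in trained animals. The background was 3.87% over all probe sets (2.53% higher and 1.35% lower), 5.96% in the low and floor classes and 8.5% for olfactory receptors. The HOX count was 2 without SII control 1 (2333 of all 52766 probe sets) and 3 without SII trained 1 (1973). It was 1 without the females (2224), 7 without SII control 2 (2312) and 6 without SII trained 3 (3132). With all arrays, 2043 of all probe sets stood there. The 5 HOX probe sets belonged to HOXB8, HOXD13 and HOXC13. With the mean over the probe sets of a gene, 2 of 26 HOX genes stood there (499 of all 14132 genes). The trained and control arrays did not overlap for 4 probe sets (9.09%; 7.08% of all), 2 of them higher (4.7% of all) and 2 lower (2.38%). Overall 25 HOX probe sets were higher and 19 lower in trained animals, with a median change of 0.13 against 0.06 for all probe sets. The median fell to -0.06 without SII trained 2 and -0.03 without SII control 2, and with the quantile scaling 21 were higher and 23 lower.

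HOXB8, a gene of the thoracic spinal cord and of blood progenitor cells, had the lowest p in SII. Its probe set MmugDNA.10129.1.S1_at read -0.24, -0.61 and -0.50 in the controls and 1.54, 2.67 and 1.91 in the trained animals. Every trained array stood above every control, by at least the gap from -0.24 to 1.54. In IPS the controls read -0.37, 0.24 and -0.36 and the trained animals 0.31, -0.25 and 1.12, and those groups overlapped. The change in SII was 2.49 ± 0.39 log2 units (fitted difference ± its standard error, SE; limma's unadjusted p = 7.9e-05, adjusted p = 0.279). It lay between 2.16 and 2.73 in 25 other settings, with adjusted p from 0.189 to 0.783. It was 0.56 ± 0.39 in IPS, and the difference of the changes was -1.92 ± 0.55 (unadjusted p = 0.0055, adjusted p = 1.00).

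The other 4 HOXB8 probe sets were also higher in trained animals in SII, by unequal amounts and with overlapping groups. MmugDNA.3771.1.S1_at read -0.24, -0.44 and 1.54 in controls and 3.02, 2.35 and 0.44 in trained animals, so 1 control stood above 1 trained animal. Its change was 1.65 ± 0.67 (unadjusted p = 0.033). The middle-class probe set MmuSTS.592.1.S1_at differed by 1.11 ± 0.84, and 1 trained array at 2.71 carried most of that difference, since it was 0.16 without SII trained 1. The floor-class probe sets MmugDNA.25579.1.S1_at and MmugDNA.26962.1.S1_at differed by 0.14 ± 0.90 and 0.15 ± 0.97. The former was at the floor in 7 of 12 arrays, and both changed sign in several other settings. In IPS 3 of the 5 HOXB8 probe sets were higher and 2 lower, and their changes ran from -0.24 to 0.89. The mean over the 5 probe sets differed by 1.11 ± 0.44 in SII and 0.39 ± 0.44 in IPS.

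**Figure D3:**
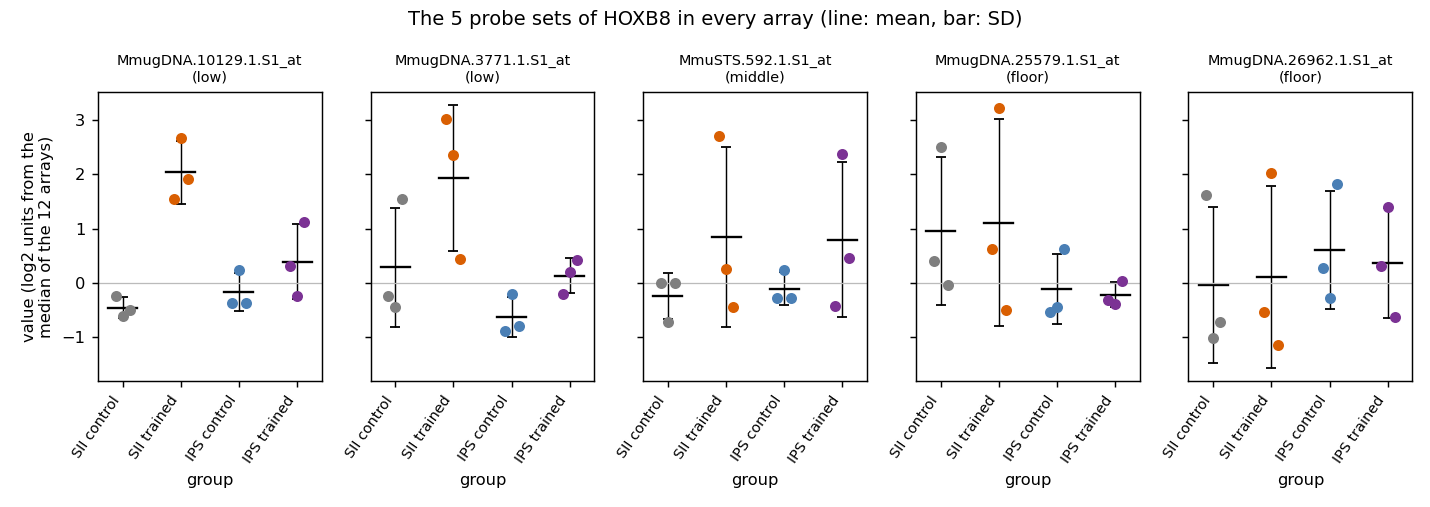
Values of the 5 HOXB8 probe sets in every array (log2 units from the median of the 12 arrays, vertical axis), by group; lines are group means and bars the SD of 3 arrays. In the first panel the 3 SII trained arrays (1.54 to 2.67) lie above all other arrays, and in the other panels the SII groups overlap.

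The mean of the leukocyte markers was higher in every trained array than in every control array of its region. The list had 7 probe sets of 4 of its 6 genes, 6 of them in the low or floor class. Its mean ran from -0.35 to -0.20 in the SII controls and from -0.05 to 0.53 in SII trained, and from -0.34 to 0.10 in the IPS controls and from 0.20 to 0.51 in IPS trained. NKG7, a granule gene of natural killer and T cells, differed by 2.71 ± 0.35 in SII (unadjusted p = 1.3e-05, adjusted p = 0.150). Single probe sets of the list were mixed, with 4 higher and 3 lower in SII trained and 5 higher and 2 lower in IPS trained. Without NKG7, left out after its value was seen, the mean ran from -0.11 to 0.05 in the SII controls and from -0.17 to 0.40 in SII trained, and from -0.47 to 0.21 in the IPS controls and from 0.14 to 0.62 in IPS trained, so the groups overlapped in both regions. PTPRC, the common leukocyte antigen, had 4 probe sets, of which 2 were higher and 2 lower in SII trained. The one with the lowest p differed by 1.73 ± 0.62 in SII. In IPS the lowest p was that of another, at 1.84 ± 0.68, and 2 of the 3 others had the same sign. The red blood cell mean was highest in SII trained 2 at 1.31, with all others at or below 0.29. Of 13 probe sets of meninges and fibroblast markers, 11 were lower in SII trained, with a median change of -0.41, 2 at an unadjusted p under 0.05 (15.4%; 3.87% of all) and LUM, a matrix protein, at -2.04 ± 0.71. Their mean ran from -0.59 to 1.01 in the SII controls and from -0.70 to -0.04 in SII trained, with overlap. The part of these cells in the HOX changes was not tested.

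The HOXD13 probe sets, all for one gene of the digits and genital bud, differed in opposite directions in SII. MmugDNA.41203.1.S1_at read 1.96, 0.09 and 0.96 in controls and -1.72, -0.82 and -0.53 in trained animals, without overlap, and was at the floor in SII trained 1 and 2. The change was -2.01 ± 0.61 (unadjusted p = 0.0081, adjusted p = 1.00). MmuSTS.128.1.S1_at read -0.92, 0.17 and -0.83 in controls and 0.60, 1.43 and 0.10 in trained animals, and the groups overlapped. It differed by 1.22 ± 0.42 (unadjusted p = 0.016), and by 0.66 in males alone. Over the 12 arrays the correlation of these probe sets was -0.75, the lowest among the 30 HOX pairs. The third HOXD13 probe set differed by -0.45 ± 1.05.

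HOXC13, a gene of hair and nail formation, read -1.62, -0.44 and -0.09 in SII controls and 0.53, 0.36 and 0.36 in trained animals. The groups did not overlap, and the change was 1.12 ± 0.45 (unadjusted p = 0.031, adjusted p = 1.00). Without SII control 1, its lowest array, it was 0.67. HOXD3, which acts in the neck vertebrae, had 1 probe set (MmugDNA.5703.1.S1_at) without overlap at -1.49 ± 0.70, while its other 2 differed by 0.49 ± 0.50 and 0.77 ± 0.88.

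In the IPS region 0 of 44 HOX probe sets passed an adjusted p of 0.05 in limma, as did 0% of all, and the lowest adjusted p was 0.402. At an unadjusted p under 0.05 stood 3 (6.82%; 3.27% of all and 5.07% of the low and floor classes), 2 higher (1.81% of all) and 1 lower (1.46%). All 3 were in the floor class. The count was 1 without IPS trained 1 (2093 of all 52766 probe sets). It was 4 without SII trained 2 (1911) or SII trained 3 (1866). With all arrays, 1726 of all probe sets stood there. With the mean over the probe sets of a gene, 3 of 26 HOX genes stood there (416 of all 14132 genes). Groups did not overlap for 4 probe sets (9.09%; 9.49% of all), 2 higher (5.77%) and 2 lower (3.72%), which is near the background. Higher values were seen for 27 probe sets and lower ones for 17, with a median change of 0.09 against 0.01 for all probe sets. With the array offsets of the floor removed, 17 were higher and 27 lower, and the median was -0.17 where that of all probe sets was -0.25.

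HOXA9, a gene of blood stem cells and of the posterior body axis, had the lowest p in IPS. It has 1 probe set, which read 0.20, 0.34 and 0.05 in controls and -1.78, -2.59 and -2.15 in trained animals. All trained arrays were below all controls. Measured from the floor, the controls stood 2.93, 2.97 and 2.72 log2 units above it, trained 1 stood at 0.72, and trained 2 and 3 were at the floor. The change was -2.35 ± 0.36 (limma's unadjusted p = 6.2e-05, adjusted p = 0.402), and -1.68 with a common floor for all arrays. It kept its direction in all 24 other settings, with adjusted p from 0.165 to 1.00. In SII the values were -1.03, 0.41 and 0.14 in controls and -0.14, 0.09 and -0.05 in trained animals, a change of 0.12 ± 0.36. SII control 1 was the lowest of these, and without it the change in SII was -0.31.

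HOXA6, a gene of the cervical and upper thoracic region, stood 0.84, 0 and 0 log2 units above the floor in the IPS controls and 3.03, 3.05 and 1.13 in the trained animals. The groups did not overlap, and the deposited values differed by 2.37 ± 0.82 (unadjusted p = 0.015, adjusted p = 1.00), or by 1.47 with a common floor. In SII its controls stood at 3.16, 2.32 and 0.51 and trained animals at 0.54, 1.85 and 2.89, so single SII arrays of either group were as bright as the IPS trained arrays. The HOXD10 probe set MmugDNA.18771.1.S1_at stood 1.05, 0 and 0 above the floor in IPS controls and 2.49, 3.24 and 0 in trained animals. Its change was 1.84 ± 0.67 (unadjusted p = 0.020), with overlap. The other HOXD10 probe sets differed by 1.00 ± 0.60 and -0.05 ± 0.27 in IPS. The HOXD13 probe set MmugDNA.1055.1.S1_at stood 3.93, 3.37 and 2.75 above the floor in IPS controls and 1.90, 0 and 1.12 in trained animals, without overlap. It differed by -2.05 ± 1.05 (unadjusted p = 0.080), and the other HOXD13 probe sets by 0.07 ± 0.42 and 0.18 ± 0.61. The steady HOXA11 probe set was higher in all 3 trained arrays, by 0.30 ± 0.21 (unadjusted p = 0.18).

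**Figure D4:**
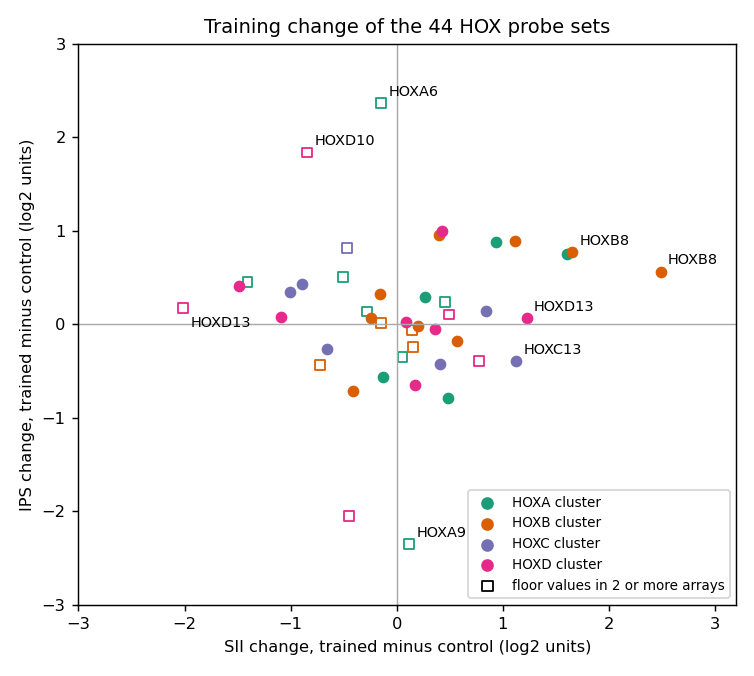
Change with training of the 44 HOX probe sets in SII (horizontal axis) and IPS (vertical axis), trained minus control in log2 units; open squares have floor values, and names mark an unadjusted p under 0.05 in either region. HOXB8 lies far to the right in SII at 2.49, HOXA9 lowest in IPS at -2.35, and 18 of the 44 points have the same sign on both axes.

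The changes in the regions had the same sign for 18 of the 44 HOX probe sets, against 50.2% of all probe sets. In the test of the difference, IPS change minus SII change, 0 of 44 passed an adjusted p of 0.05 (0% of all; lowest 0.734), and 5 stood at an unadjusted p under 0.05 (11.4%; 3.68% of all and 5.74% of the low and floor classes), 2 above 0 (1.63% of all) and 3 below (2.05%). The lowest p was that of HOXA9 at -2.47 ± 0.50 (unadjusted p = 0.00058). HOXB8 MmugDNA.10129.1.S1_at followed, then HOXD10 MmugDNA.18771.1.S1_at at 2.68 ± 0.93, HOXD13 MmugDNA.41203.1.S1_at at 2.19 ± 0.85 and HOXC13 at -1.52 ± 0.63. Both directions occurred. With single arrays left out the HOX count ran from 3 to 8, and that of all 52766 probe sets from 1682 to 3030. With all arrays the latter was 1944. The HOX count was 3 without SII control 1 (2021 of all), SII trained 1 (1801), IPS control 2 (1803) or IPS trained 2 (1759). It was 8 without SII control 2 (2278) or IPS control 1 (1795).

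Between regions, over trained and control animals together, 0 of 44 passed an adjusted p of 0.05 (0% of all; lowest 0.421), and 3 stood at an unadjusted p under 0.05 (6.82%; 9.26% of all), 0 higher (4.08% of all) and 3 lower in IPS (5.18%). HOXA9 differed by -0.89 ± 0.25 (unadjusted p = 0.0052), or by -0.56 with a common floor, and HOXB8 MmugDNA.3771.1.S1_at by -1.35 ± 0.47 (unadjusted p = 0.015). HOXB8 MmugDNA.10129.1.S1_at differed by -0.66 ± 0.27. Without SII trained 1 the HOX count was 5, and the count over all 52766 probe sets rose as well, from 4888 to 5796. A probe set wholly at the floor shows -0.18 here from the array offsets alone.

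Of the 10 HOX genes with several probe sets, 3 had changes of 1 sign in SII (HOXA11, HOXB6 and HOXB8) and 4 in IPS (HOXA10, HOXB5, HOXB6 and HOXC6). Pairs of probe sets had the same sign in 18 of 30 cases in SII (60%; 51.3% over all genes) and 16 in IPS (53.3%; 53.4%). All 10 pairs of HOXB8 shared their sign in SII and 4 in IPS, so 8 of the other 20 pairs (40.0%) did in SII. Pairs of a gene with 5 probe sets are not independent of each other. HOXC6, a thoracic gene with 4 probe sets, had 1 higher and 3 lower in SII and 4 higher in IPS, with no unadjusted p under 0.05.

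**Figure D5:**
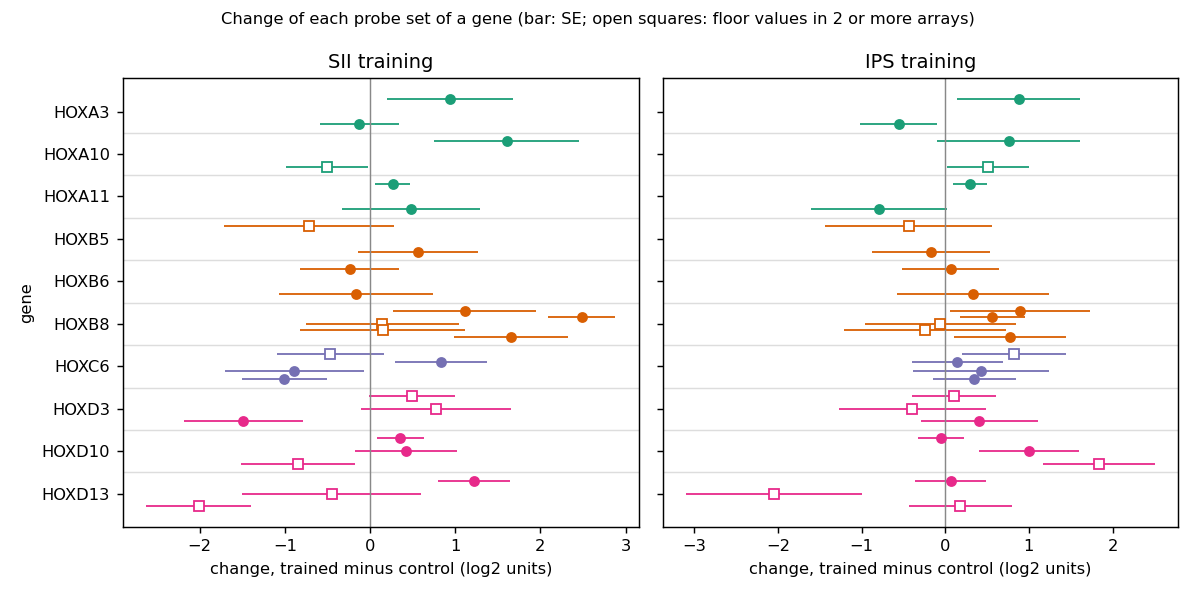
Change of every probe set of the 10 HOX genes with several probe sets, trained minus control in log2 units (horizontal axis), in SII (left) and IPS (right); bars are the SE and open squares have floor values. The HOXD13 probe sets lie on both sides of 0 in SII, from -2.01 to 1.22, and the 5 HOXB8 probe sets all lie to the right of 0 in SII.

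By position along the clusters, the 9 probe sets of anterior genes (numbers 1 to 3) had no unadjusted p under 0.05 in either region. The 18 of the central genes (4 to 8) had 2 in SII (11.1%; 3.87% of all), both HOXB8, and 1 in IPS (5.56%; 3.27% of all), HOXA6. The 17 of the posterior genes (9 to 13) had 3 in SII (17.6%; 3.87% of all and 5.96% of the low and floor classes) and 2 in IPS (11.8%; 3.27% and 5.07%). The median SD of the posterior probe sets was 0.76, and that of both other parts was 0.92.

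The partners and regulators of HOX genes had no probe set past the adjusted threshold either. Of the cofactors PBX, MEIS and PKNOX, 6 of 9 genes had probe sets, 11 in all, of which 2 were high and 5 middle. In limma 0 were called in each region. At an unadjusted p under 0.05 stood 0 in SII (3.87% of all) and 1 of 11 in IPS (9.09%; 3.27% of all). That one was PBX2, a partner of HOX proteins, higher by 1.44 ± 0.54 in IPS trained animals (unadjusted p = 0.024, adjusted p = 1.00). In SII the lowest p belonged to PBX3 (-1.18 ± 1.00) and PKNOX2 (-0.38 ± 0.37), and MEIS3 followed PBX2 in IPS (0.53 ± 0.52). The PBX3 probe set was in the floor class, and 0 of the 2 other PBX3 probe sets had the same sign. For PKNOX2 it was 1 of 2. Of the upstream regulators, 12 of 17 genes had 23 probe sets, with 0 calls, and at an unadjusted p under 0.05 stood 0 in SII (3.87% of all) and 1 in IPS (4.35%; 3.27% of all). That one was RARA, a retinoic acid receptor, at -1.48 ± 0.64 in IPS, where 3 of its 5 other probe sets had the same sign. Another RARA probe set differed by 1.18 ± 0.79 in SII, where 4 of its 5 other probe sets had the same sign. CYP26B1 and CYP26A1, which degrade retinoic acid, differed by -1.52 ± 0.86 in SII and 0.56 ± 0.32 in IPS. The 1 other CYP26A1 probe set did not share its sign.

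Of Polycomb and Trithorax genes, which keep HOX clusters off or on, 13 of 22 had 36 probe sets, with 0 calls, and at an unadjusted p under 0.05 stood 0 in SII (3.87% of all) and 1 in IPS (2.78%; 3.27% of all), which is near the background. KMT2D, a histone methyltransferase, differed by 1.24 ± 0.58 in SII in one probe set and by -0.54 ± 0.23 in IPS in another. In each region 2 of the 4 other KMT2D probe sets had the same sign. EZH1, a Polycomb methyltransferase, differed by 1.15 ± 0.62 in SII, and PHC3, a Polycomb subunit, by 1.40 ± 0.67 in IPS. Both other EZH1 probe sets (2 of 2) had the same sign, and PHC3 had no other. The median changes of these probe sets were -0.05 in SII and 0.05 in IPS.

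Homeobox genes that the forebrain does use gave 0 calls as well. Of 18 genes, 10 had 17 probe sets, of which 2 were high, 7 middle and 8 (47.1%; 52.0% of all) low or at the floor, and the median SD was 0.50. At an unadjusted p under 0.05 stood 0 in SII (3.87% of all) and 1 of 17 in IPS (5.88%; 3.27% of all). That one was POU3F1, a POU factor of cortical projection neurons, at -1.67 ± 0.43 in IPS (unadjusted p = 0.0031, adjusted p = 1.00). CUX2, a marker of upper layers in the high class, differed by -0.33 ± 0.24 in IPS. LHX6 and EMX1, of interneurons and of the dorsal forebrain, differed by 0.83 ± 0.83 and 0.26 ± 0.27 in SII. The 1 other probe set of LHX6 shared its sign, and that of EMX1 did not.

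Genes that cortex is not thought to use also gave wide apparent changes. Olfactory receptors had 0 calls in both regions, and 17 and 10 of 200 probe sets (8.5% and 5.0%) at an unadjusted p under 0.05 in SII and IPS. The shares over all probe sets were 3.87% and 3.27%. In the low and floor classes they were 5.96% and 5.07%, so the olfactory share in IPS was near that of these classes. OR4D5 differed by 1.96 ± 0.50 and OR52B6 by 0.86 ± 0.29 in SII, and OR10G9 by -0.83 ± 0.24 and OR5T1 by -1.57 ± 0.47 in IPS. The 1 other probe set of OR4D5 shared its sign, and that of OR5T1 did not. Their changes ran from -2.0 to 2.01 in SII, where those of HOX ran from -2.01 to 2.49. The other silent genes had none at an unadjusted p under 0.05 in the training comparisons, and FGA, a clotting protein of the liver, had the lowest p in SII at 1.26 ± 0.69. Of 5 probe sets of hindbrain and spinal cord genes, 2 were higher and 3 lower in SII trained, with a median change of -0.03. In IPS trained 4 were higher and 1 lower, with a median change of 0.41 and 0 at an unadjusted p under 0.05 (3.27% of all). TLX3 had the lowest p there, in a floor-class probe set at 1.55 ± 1.01, and its 1 other probe set did not share its sign. LBX1, which specifies dorsal spinal neurons, differed by 1.67 ± 0.46 in SII (unadjusted p = 0.0047, adjusted p = 0.965). In signal, 4 of the 5 were low or at the floor.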

How the data were processed

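The deposited values are on a log2 scale, inferred from the values, with each probe set centred on its median over the 12 arrays by the authors. Per the submitters' processing notes the tool was MAS5, of unstated version. How the arrays were scaled is not given in these sources. Of 52865 probe sets, 99 controls were left out. Genes came from the platform annotation, which gives 24956 probe sets 1 symbol, 361 several and 27449 none. No gene sequences were used.

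The shared floor of each array, its offsets and the signal classes were computed from the differences between arrays. limma 3.58.1 (R 4.3.3) was fitted to all 52766 probe sets with 4 group means, the animal as a random block (correlation 0.047, reused in the alternatives) and 8 residual degrees of freedom, with 2-sided p-values and Benjamini-Hochberg adjustment. The scripts were tested on simulated data. The arrays of a group are from separate animals, 3 per group, which limits the precision.

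The members and lists were chosen with earlier results of these data known. Named were the 4 HOX probe sets with the lowest p in each training comparison and in the difference, and the 2 between regions. Also named were all of HOXB8 and HOXA9, the 2 steadiest and 2 widest, and the 2 genes with the highest and lowest agreement of probe sets. High-class probe sets were to be named, and there were none. The rule also took 2 genes per other list and region. These are all named for the cofactors, upstream regulators, Polycomb and Trithorax genes, forebrain homeobox genes and olfactory receptors. Of the remaining lists, including the cell type markers, only some of them are named. The middle-class genes, those without overlap, the other floor-class examples, the other probe sets of a named gene and HOXC6 were named after their values were seen.

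Same-numbered arrays did not deviate together (median correlation -0.02 over 18 pairs of arrays). Arrays of the same animal had a median of only 0.04, so this value cannot tell whether numbers pair samples. By the labels, SII trained 1 and IPS trained 1 were the same animal, as were SII trained 3 and IPS trained 3. The numbers of the control arrays do not follow the animals. Alternatives were the scaling, weights, covariates, samples, floor, filter, moderation and gene means.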

Additional observations from a re-analysis of the deposited data

How the results depend on the processing

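In limma no HOX probe set passed an adjusted p of 0.05 in any comparison under any alternative run. The replicate numbers follow the animals only in part. With the replicate number as a block, 0 were called. At an unadjusted p under 0.05 stood 5, 3, 5 and 2 in SII training, IPS training, the difference and IPS against SII. Without the block the counts were 5, 3, 5 and 3. Over all alternatives these counts ran from 0 to 7, 0 to 4, 0 to 8 and 0 to 5. The median HOX change in SII was 0.36 without floor-class probe sets, and in IPS -0.56 in the 5 middle probe sets and -0.17 with the array offsets of the floor removed, an alternative chosen after seeing the data that shifts all probe sets by -0.27 in IPS. Leaving out 1 array moved the SII median between -0.056 and 0.20. The median SD was 0.72 in the 5 middle probe sets. The share of pairs with the same sign ran from 36.7% to 60% in SII and from 43.3% to 76.7% in IPS with 1 array left out, and was 70.0% in each region without floor-class probe sets. Over all alternatives it was no lower than 36.7% in SII and 40.0% in IPS, the latter with array weights. The median correlation of pairs was 0.16 with the offsets removed and 0.11 without floor-class probe sets.

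The change of HOXA9 in SII reversed to -0.018 with quantile scaling, -0.11 with array weights, -0.38 in males only, -0.38 without the 3 arrays with raised hybridisation controls and -0.31 without SII control 1; with 1 array left out it ran up to 0.40. That of HOXB8 MmugDNA.25579.1.S1_at in SII reversed to -0.13 with quantile scaling, -0.12 with weights, -1.19 in males only, -1.19 without those 3 arrays, and -0.14, -0.35 and -0.91 without SII control 1, SII control 3 and SII trained 2, with a highest value of 0.95 without SII trained 3. In IPS it reversed to 0.036 with a common floor, and to 0.32 and 0.05 without IPS control 3 and IPS trained 2, and with 1 array left out it went down to -0.30, without IPS control 1. HOXB8 MmugDNA.26962.1.S1_at reversed in SII to -0.34, -0.18 and -0.79 without SII control 2, SII control 3 and SII trained 2 (highest 0.97, without SII control 1), and in IPS to 0.35 and 0.24 without IPS control 3 and IPS trained 3 and 0.24 without the 3 arrays with raised controls (lowest -0.75, without IPS trained 2). The cause was not tested. Signal near the floor limits what these probe sets can show.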
